A study of Mus musculus with 4 samples.

Results

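The 40 genes described here encode proteins that license, start and run DNA replication or supply its nucleotides. They form a list of names to which no cut on measured values was applied, though it was chosen with earlier results of these data known. All 40 were found among the 45706 genes of the count table, and all 40 were among the 16570 genes that passed the filter on low counts. RNA came from the heart outflow tract of C57BL/6 embryos at embryonic day 12.5, the vessel stem that becomes the aortic and pulmonary roots. Wild-type (WT) embryos were compared with Sox17eKO embryos, in which Sox17, a gene for an endothelial transcription factor, was knocked out in aortic root endothelium with a Cre recombinase under an Nfatc1 enhancer. No source used here says whether WT embryos carried the Cre. Each library was 1 pool of 10 hearts, with 2 pools per genotype, and held the whole outflow tract, so cells outside the Cre domain were in every pool. Identifying targets of SOX17 was the stated aim of the comparison.

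A cell copies its genome once per division. In G1 phase the origin recognition complex, CDC6 and CDT1 load the ring-shaped MCM2 to MCM7 helicase onto origins, a step called licensing. CDK2 with its activator cyclin E, and other kinases, then let CDC45 and the GINS complex join the ring. DNA polymerases, held on the template by the PCNA clamp, follow the opened fork. Many of these genes are switched on together before S phase by E2F transcription factors, and embryonic heart tissue holds many dividing cells.

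The stretches below are shown because E2F proteins bind letters of the kind searched for, TTTCCCGC, TTTCGCGC, TTTGCCGC or TTTGGCGC, on either strand. Windows from 250 bases before to 50 bases after the gene start, from RefSeq on GRCm38.p6, were at hand for 32 of the 40 genes. Of these, 12 held at least 1 such match (37.5%), against 4.71% of 10835 genes tested that had a window and 2.6% of all 27025 genes with one. The letters CCAAT, on either strand, which also lie before many cell cycle genes, were in 20 of the 32 (62.5%), against 42.7% of the genes tested. Stretches are printed for the 4 genes with an E2F-type match before the start and clear of annotated exons, Mcm5, Mcm6, Cdc6 and Pola1, and for Mcm10, which held none there and had the highest fitted ratio between the genotypes. The Cdc6 stretch lies inside the gene as GENCODE M21 draws it, in an intron, and the others lie before their genes. Capitals mark E2F-type and CCAAT matches, and each line runs 5′ to 3′ on the strand of its gene.
Mcm5 (chr8:75109336-75109508, plus strand): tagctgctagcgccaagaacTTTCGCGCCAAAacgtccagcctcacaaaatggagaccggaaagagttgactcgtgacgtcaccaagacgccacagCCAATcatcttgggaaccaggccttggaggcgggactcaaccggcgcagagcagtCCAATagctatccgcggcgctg
Mcm6 (chr1:128359706-128359835, minus strand): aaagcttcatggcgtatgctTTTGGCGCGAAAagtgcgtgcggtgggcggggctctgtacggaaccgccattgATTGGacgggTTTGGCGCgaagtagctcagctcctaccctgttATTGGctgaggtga
Cdc6 (chr11:98907993-98908040, plus strand): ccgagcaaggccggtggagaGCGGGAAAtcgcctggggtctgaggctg
Pola1 (chrX:93632168-93632313, minus strand): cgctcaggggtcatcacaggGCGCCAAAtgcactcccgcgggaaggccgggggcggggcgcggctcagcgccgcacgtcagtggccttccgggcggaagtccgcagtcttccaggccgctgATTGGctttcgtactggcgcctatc
Mcm10 (chr2:5012792-5012909, minus strand): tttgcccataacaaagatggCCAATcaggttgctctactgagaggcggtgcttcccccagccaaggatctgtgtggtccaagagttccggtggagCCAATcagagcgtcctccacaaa
In Mcm5, and at the distal site of Mcm6, 2 matches on opposite strands overlap in a single capital run, and Mcm6 has another nearer the start. A match is a description of letters and not of a bound site. The 12 genes with an E2F-type match had a median log2 fold change of -0.08 and the 20 without one a median of -0.10.

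None of the 40 replication genes passed the test between the genotypes, and most fitted levels were slightly lower in Sox17eKO. With edgeR (quasi-likelihood test, Benjamini-Hochberg adjusted p over all genes), 0 of 40 were called higher and 0 lower, while 4.13% of all genes tested were called higher and 1.22% lower (5.35% in either direction). DESeq2, among members to which it gave an adjusted p, and limma-voom also called 0. DESeq2 gave none to Cdt1, the member with the lowest fitted value, nor to some other members. With a trend on transcript GC content removed, 4 were called lower (Pcna, Ccne2, Mcm6 and Rpa1), where 3.62% of the coding genes tested were. With scaling by library size only, 0 were called, and the share of all genes called was 4.64% higher and 0.670% lower. At an unadjusted p under 0.05 there were 7 of 40 (17.5%), all with lower fitted levels, near the 20.9% of all genes tested. The median log2 fold change of Sox17eKO over WT was -0.08, a level 94.5% of WT, beside -0.01 over all genes tested. Fitted values were below 0 for 33 of 40 genes (82.5%, against 51.8% of all genes tested). Both Sox17eKO libraries lay below both WT libraries for 22 of 40 genes (55%, against a background of 26.2%), and above them for 3 (7.5%, against 26.5%). In pooled tissue, a change in the share of cycling cells and a change in these RNAs per cell cannot be told apart.

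The intervals bound large differences but not small ones. Reads per gene and library ranged from 101 to 7168, and standard errors of the log2 fold change from 0.074 to 0.15. The 95% interval lay within 1.5-fold in both directions for 39 of 40 genes, the exception being Cdt1. It lay within 1.2-fold for only 13 of 40, so differences near the size of the fitted ones could not be bounded for most of the genes. Over all genes tested, 64.2% and 13.4% had intervals that narrow. Every member's interval lay within 2-fold. These intervals are per gene and not widened for the number of genes. Single pools also moved many values by over 1.5 times: leaving out 1 library gave -0.23 to -0.06 for Mcm3, -0.27 to -0.10 for Mcm5, -0.24 to -0.07 for Cdc45, -0.21 to -0.03 for Gins1, -0.19 to -0.07 for Rfc2, -0.26 to -0.08 for Pold1 and -0.32 to -0.13 for Ccne2.

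**Figure D1:**
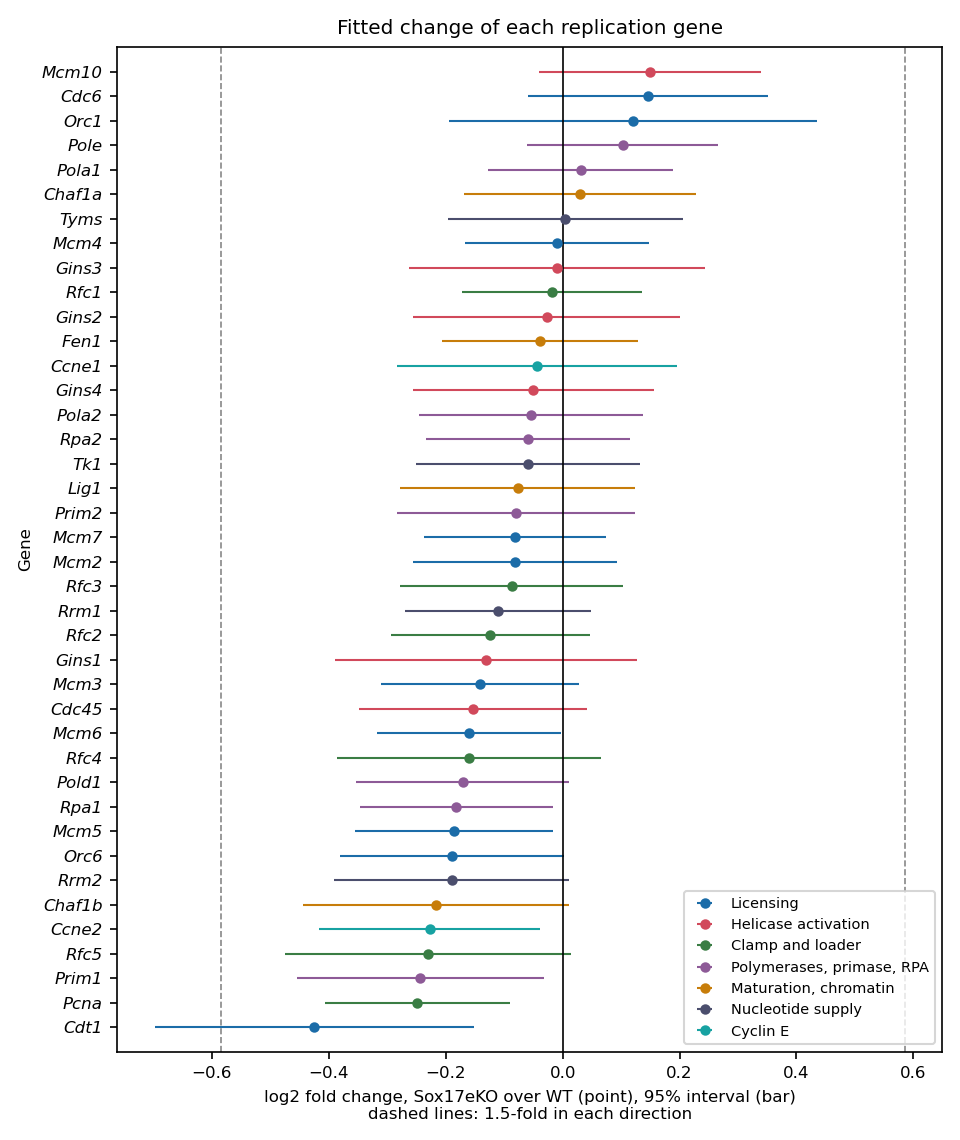
Fitted log2 fold change of Sox17eKO over WT (horizontal axis, points) with 95% intervals (bars) for the 40 replication genes, ordered by value and coloured by role. The points run from -0.42 for Cdt1 to 0.15 for Mcm10, and only the bar of Cdt1 crosses a dashed line at 1.5-fold.

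Library facts that bear on these values are as follows. Reads assigned to genes ranged from 8113463 (WT replicate 2) to 21883956 (Sox17eKO replicate 2). Sox17 itself was at 6.05 and 6.83 CPM (read counts scaled to library size with TMM factors) in the WT pools and 2.76 and 2.82 in the Sox17eKO pools, or -1.19 on the log2 scale (edgeR adjusted p = 0.00574; 0.0786 without WT replicate 2). Reads outside annotated features made up 22.2% and 20.4% of uniquely placed reads in WT and 34.1% and 29.5% in Sox17eKO, and the part of this difference in the results was not tested. Levels in the text are CPM, and levels per kilobase divide them by the length of the principal transcript.

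The summed level of the 40 genes was 3154 and 3302 CPM in WT and 2944 and 3062 CPM in Sox17eKO. The Sox17eKO sums therefore lay below both WT sums, with a mean 93.0% of the WT mean, and the gap between the nearest pools of different genotype was smaller than that between the pools of either genotype. Among the role groups, the clamp and loader genes summed to 408 and 429 CPM in WT and 382 and 379 in Sox17eKO, and the licensing genes to 1111 and 1180 in WT and 1030 and 1087 in Sox17eKO. In both role groups the genotypes did not overlap. Helicase activation genes summed to 193 and 194 CPM in WT and 193 and 186 in Sox17eKO, nearly the same level in 3 of the 4 libraries. Maturation and chromatin genes summed to 217 and 222 in WT and 194 and 224 in Sox17eKO, and the groups overlapped.

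**Figure D2:**
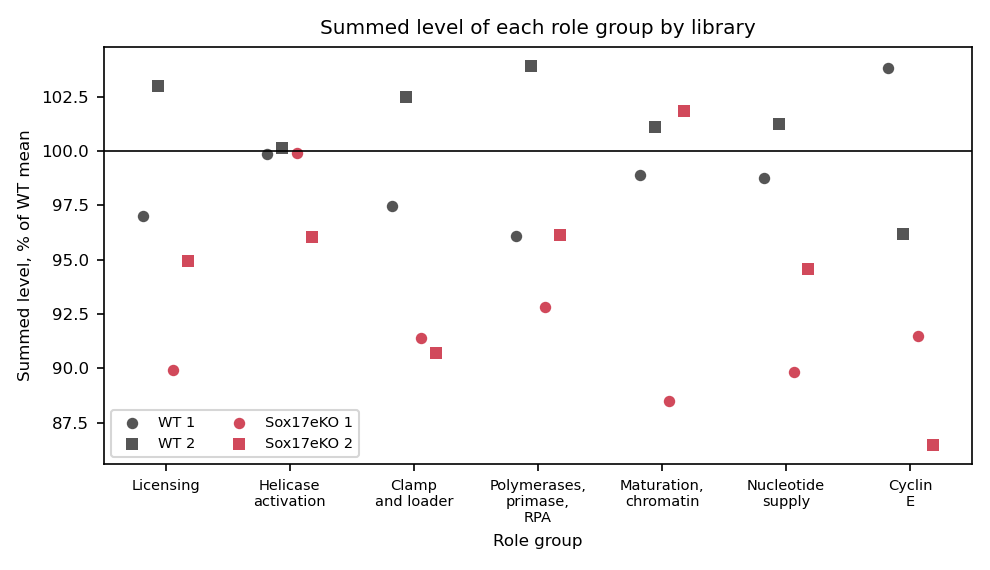
Summed TMM-scaled level of each role group in each library (vertical axis, percent of the WT mean of that group; the axis does not start at 0). Grey points are WT pools, red points Sox17eKO pools, circles replicate 1 and squares replicate 2. The Sox17eKO points lie below both WT points for the licensing, clamp and loader, nucleotide supply and cyclin E groups, and overlap them for the other groups.

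Licensing genes began with the origin recognition subunits. Orc1, the ATPase subunit that is made and destroyed in each cycle, was the lowest of all 40 per kilobase (3.93 CPM per kilobase), at 10.1 and 12.8 CPM in WT and 12.6 and 12.0 in Sox17eKO, so the groups overlapped. Orc6, the smallest subunit, was at 44.5 and 45.5 CPM in WT and 40.3 and 38.7 in Sox17eKO, which gave -0.19 on the log2 scale and missed the threshold (edgeR adjusted p = 0.243).

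Cdc6 and Cdt1, the pair of loading factors, lay on opposite sides of 0. Cdc6, an ATPase that helps load the ring, was at 34.4 and 32.4 CPM in WT and 36.6 and 37.4 in Sox17eKO, both knockout pools above both WT pools. The fitted difference was 0.15 on the log2 scale, standard error 0.098 (edgeR adjusted p = 0.416). Cdt1, which brings the helicase to the origin, was at 22.8 and 23.9 CPM in WT and 15.2 and 19.2 in Sox17eKO. Its log2 fold change was the lowest of the 40, -0.42 (standard error 0.13), with a 95% interval of -0.70 to -0.15, and it did not pass (edgeR adjusted p = 0.0634). Both Sox17eKO pools were below both WT pools for Cdt1, and the lowest value was that of Sox17eKO replicate 1. Without Sox17eKO replicate 2 the log2 fold change was -0.61 and the adjusted p 0.0219, and without Sox17eKO replicate 1 it was -0.28 with an adjusted p of 0.389, so the size and the call moved with which Sox17eKO library was kept.

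The 6 subunits of the MCM helicase ring are needed in equal numbers, and per kilobase their RNAs were close, from 42.9 CPM per kilobase for Mcm4 to 51.7 for Mcm3, with Mcm6 above them at 74.5. Divided by all annotated exons instead, Mcm2 dropped to the lowest of the ring at 23.5 CPM per kilobase, while Mcm6 remained the highest at 46.5. Mcm4 and Mcm3 were then next to Mcm6 at 42.9 and 41.8, so the closeness of the levels depended on the length used. By principal transcript, the ranges over the libraries of Mcm2, Mcm3, Mcm5 and Mcm7 overlapped each other (45.1 to 53.4, 46.3 to 56.4, 42.3 to 52.9 and 46.1 to 50.2 CPM per kilobase). The range of Mcm4 (41.6 to 43.9) overlapped only that of Mcm5, and that of Mcm6 (70.1 to 79.7) overlapped none of the others.

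Between genotypes, Mcm5 was at 158 and 179 CPM in WT and 143 and 153 in Sox17eKO. Mcm6 was at 226 and 232 CPM in WT and 204 and 205 in Sox17eKO. For both genes the groups did not overlap, and the fitted differences, -0.19 and -0.16 on the log2 scale, missed the threshold (edgeR adjusted p = 0.191 and 0.230). Mcm3 was at 158 and 171 CPM in WT and 140.5 and 157 in Sox17eKO. Mcm7 was at 146 and 149 CPM in WT and 137 and 141 in Sox17eKO. These 2 subunits also had no overlap, though in Mcm3 the nearest WT and Sox17eKO pools were almost equal. Mcm2 was at 157 and 179.9 CPM in WT and 152 and 166 in Sox17eKO, and Mcm4 at 154 and 154 in WT and 149 and 157 in Sox17eKO. In Mcm2 and Mcm4 the groups overlapped, with log2 fold changes of -0.08 and -0.01. All 6 subunits thus had fitted values at or under 0, and none passed in the main fit. Mcm4 turned above 0 with scaling by library size only, at 0.02, and with the length trend removed, at 0.03. It also did so with length and GC trends both removed, and reached 0.03 with 1 library left out. Mcm2 turned above 0 without WT replicate 2, at 0.01. Mcm6 was called lower with the GC trend removed (edgeR adjusted p = 0.0363).

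**Figure D3:**
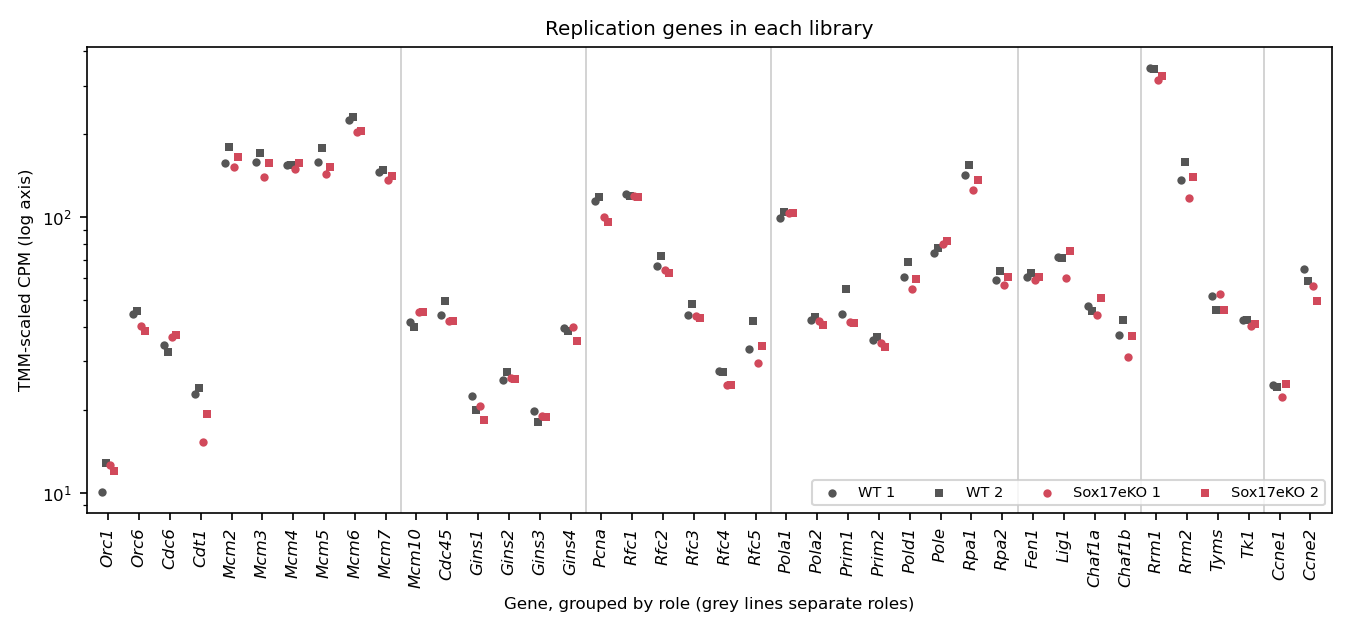
TMM-scaled CPM (vertical log axis) of each of the 40 genes in each library, grouped by role along the horizontal axis; grey points are WT pools and red points Sox17eKO pools, circles replicate 1 and squares replicate 2. Rrm1 is the highest at 315 to 348 CPM and Orc1 the lowest at 10.1 to 12.8, and the 4 points of a gene lie close together beside the distance between genes.

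Of the genes that turn a loaded ring into an active helicase, Mcm10 had the highest log2 fold change of all 40. MCM10, which helps start unwinding, had RNA at 41.6 and 39.98 CPM in WT and 45.4 and 45.1 in Sox17eKO. The groups did not overlap, the pools of each genotype were nearly equal, and the fitted difference of 0.15 on the log2 scale (standard error 0.090) missed the threshold (edgeR adjusted p = 0.363). Cdc45, which joins the ring at firing, was at 44.2 and 49.7 CPM in WT and 42.0 and 42.1 in Sox17eKO (log2 fold change -0.15, edgeR adjusted p = 0.363). The 4 GINS genes all had overlapping groups, with log2 fold changes from -0.13 for Gins1 to -0.01 for Gins3. Gins4 was the highest of this group per kilobase (28.4 CPM per kilobase), at 39.5 and 38.5 CPM in WT and 40.1 and 35.5 in Sox17eKO. Gins2 was the lowest, at 6.73 CPM per kilobase. Exons of Gse1 on the other strand cover 67.3% of the exonic length of Gins2, and no source used here says how strand was counted, which makes the level of Gins2 uncertain.

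Pcna, the sliding clamp that keeps polymerases on DNA and a common marker of cycling cells, was at 115 and 119 CPM in WT and 100.1 and 96.4 in Sox17eKO. Both Sox17eKO pools were clearly under both WT pools, and the pools of each genotype were close. The fitted difference of -0.25 on the log2 scale had a standard error of 0.075 and a 95% interval of -0.41 to -0.09, a fitted level 84.2% of WT, and had the smallest adjusted p of the 40 without passing (edgeR adjusted p = 0.0616). Its log2 fold change was between -0.28 and -0.22 when any 1 library was left out (edgeR adjusted p = 0.0891 to 0.293). It passed at -0.31 with the GC trend removed (edgeR adjusted p = 0.00424), and was at -0.15 with the length trend removed (edgeR adjusted p = 0.349). The annotation holds 2 pseudogenes of Pcna and 1 of Tyms, and no source used here says how reads shared with such copies were treated, which makes both levels uncertain.

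The 5 subunits of replication factor C, which opens the clamp and closes it round DNA, all had fitted values below 0, from -0.23 for Rfc5 to -0.02 for Rfc1. Rfc1, the large subunit, was at 122 and 119.7 CPM in WT and 119.6 and 119 in Sox17eKO, almost the same in the 4 pools. Its 95% interval was -0.17 to 0.14. Rfc5 was at 33.3 and 42.1 CPM in WT and 29.7 and 33.9 in Sox17eKO, and the WT pools differed from each other by more than the Sox17eKO pools did. With WT replicate 1 left out it was at -0.40, and with WT replicate 2 left out at -0.06 (edgeR adjusted p = 0.0788 and 0.876). Rfc2, Rfc3 and Rfc4 had log2 fold changes of -0.12, -0.09 and -0.16, each with both Sox17eKO pools below both WT pools.

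Among polymerase, primase and single-strand binding genes the fitted values spread on both sides of 0. Prim1, the catalytic subunit of primase, which lays the RNA primers, was at 44.4 and 54.8 CPM in WT and 41.8 and 41.4 in Sox17eKO. The high WT replicate 2 set much of its log2 fold change of -0.24 (edgeR adjusted p = 0.169): without WT replicate 1 it was -0.40 (edgeR adjusted p = 0.0466) and without WT replicate 2 it was -0.10 (edgeR adjusted p = 0.760). Prim2, its partner, had a log2 fold change of -0.08, and Pola1 and Pola2 of the same complex 0.03 and -0.05. Pole, the catalytic subunit of the leading strand polymerase, was at 74.3 and 77.3 CPM in WT and 80.3 and 82.3 in Sox17eKO, above WT in both pools (log2 fold change 0.10, edgeR adjusted p = 0.484). Pold1, the catalytic subunit of the lagging strand polymerase, lay on the other side, at 60.6 and 68.8 CPM in WT and 54.8 and 59.5 in Sox17eKO (-0.17, edgeR adjusted p = 0.273). Of the genes for replication protein A, which coats single strands, Rpa1 had a log2 fold change of -0.18 without overlap of the groups, and Rpa2 was at 59.2 and 63.6 CPM in WT and 56.5 and 60.9 in Sox17eKO, with overlap.

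Genes that finish the new strands and wrap them in nucleosomes had fitted values close to 0 except Chaf1b. Fen1, the flap nuclease of Okazaki fragments, was at 60.7 and 62.9 CPM in WT and 59.4 and 60.7 in Sox17eKO (log2 fold change -0.04). Lig1, the ligase that seals them, was at 71.9 and 71.4 CPM in WT and 60.1 and 75.2 in Sox17eKO, so the Sox17eKO pools lay on both sides of WT. Chaf1a and Chaf1b encode partners in the histone chaperone CAF-1. Chaf1a was at 47.5 and 45.7 CPM in WT and 43.996 and 51.0 in Sox17eKO, and Chaf1b at 37.2 and 42.3 in WT and 31.0 and 36.9 in Sox17eKO, with log2 fold changes of 0.03 and -0.22 (edgeR adjusted p = 0.895 and 0.263). The Chaf1b value was -0.35 without Sox17eKO replicate 2 and -0.10 without Sox17eKO replicate 1. Opposite-strand exons cover 84.2% of the exonic length of Fen1 (Tmem258 and Gm10143) and 52.5% of that of Chaf1a (Ubxn6), which leaves these levels uncertain.

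Rrm1 and Rrm2 encode the subunits of ribonucleotide reductase, the enzyme that makes deoxyribonucleotides, and Rrm1 was the highest of the 40 per kilobase (83.4 CPM per kilobase). Divided by all annotated exons Rrm2 was higher, at 49.9 against 30.3. Rrm1 was at 348 and 344 CPM in WT and 315 and 326 in Sox17eKO, with no overlap and a fitted log2 difference of -0.11 (edgeR adjusted p = 0.430). Rrm2, the subunit whose amount follows S phase, was at 136 and 159 CPM in WT and 117 and 140.3 in Sox17eKO, and the groups overlapped (-0.19, edgeR adjusted p = 0.268). It was at -0.33 without Sox17eKO replicate 2, -0.07 without Sox17eKO replicate 1, -0.30 without WT replicate 1 and -0.08 without WT replicate 2. Tyms, thymidylate synthase, was at 51.9 and 46.0 CPM in WT and 52.8 and 46.1 in Sox17eKO, a pair of nearly equal groups with a 95% interval of -0.20 to 0.21. Tk1, thymidine kinase, had a log2 fold change of -0.06.

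The cyclin E genes, which encode the activator of CDK2 at S phase entry, had fitted values below 0 for both members. Ccne2 was at 64.7 and 58.4 CPM in WT and 56.3 and 49.4 in Sox17eKO, without overlap (log2 fold change -0.23, edgeR adjusted p = 0.148). Ccne1 was at 24.5 and 24.2 CPM in WT and 22.3 and 24.8 in Sox17eKO, with overlap (-0.04, edgeR adjusted p = 0.870).

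Outside the 40, a list of 32 other replication genes gave the same count: 0 called higher and 0 lower, with a median log2 fold change of -0.04. Its members with the smallest p were Atad5, which unloads the clamp (log2 fold change 0.30, edgeR adjusted p = 0.0640), and Dut, which keeps uracil out of DNA (-0.29, edgeR adjusted p = 0.0693). Of 27 regulators of the step from G1 to S phase, 1 rose and 1 fell. Beside this list and the mitosis list below, 4.13% of all genes tested were called higher and 1.22% lower. Cdk6, a kinase partner of D cyclins, rose from 53.7 and 48.6 CPM in WT to 69.5 and 72.6 in Sox17eKO (log2 fold change 0.47, edgeR adjusted p = 0.00328). Cdkn1c, the imprinted inhibitor p57, fell from 619 and 643 CPM to 475 and 504 (-0.37, edgeR adjusted p = 0.0104). For both genes the genotypes did not overlap, and exons of Gm44732 on the other strand cover 30.7% of the exonic length of Cdkn1c. The E2F genes E2f1 to E2f8 did not pass, with log2 fold changes from -0.21 for E2f5 to 0.28 for E2f7. Of 22 mitosis genes 1 rose, Cenpf, a large kinetochore protein. It went from 243 and 205 CPM in WT to 285 and 292 in Sox17eKO (0.37 on the log2 scale, edgeR adjusted p = 0.0177). The list median was -0.08, with 9 fitted values above 0 and 13 below. Its sums were 3431 and 3321.5 CPM in WT and 3399 and 3508 in Sox17eKO. Mki67 of this list, with 10061 exonic bases, was at 470 and 422 CPM in WT and 526 and 540 in Sox17eKO (0.26, edgeR adjusted p = 0.0684). The Cdk6, Cdkn1c and Cenpf calls were lost without WT replicate 2 (edgeR adjusted p = 0.0793, 0.0981 and 0.245) and with a trend on transcript length removed (0.160, 0.0513 and 0.296, at log2 fold changes of 0.24, -0.25 and 0.16). Without Sox17eKO replicate 1 the Cdkn1c and Cenpf calls also ended, as did that of Cenpf without Sox17eKO replicate 2. With length and GC trends both removed, the Cdk6 and Cenpf calls were lost as well.

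Transcript length moved with the fold change over the whole table. In 5 equal groups of protein-coding genes by exonic length, the median log2 fold change went from -0.14 in the shortest to 0.16 in the longest. The replication genes ran the same way, from -0.15 for the 6 members in the shortest group to 0.03 for the 5 among the longest, with -0.11, -0.12 and -0.08 between them, against -0.08, -0.03 and 0.04 for coding genes of those groups. The member median was thus under the coding median in each length group and closest to it in the shortest. Members with a value above 0 were mostly long (Pole has 11160 exonic bases, Mcm10 7692), with Orc1 (3479) the shortest of them. Across the 40 genes, which share libraries and depth, Pearson's r of the log2 fold change with log2 exonic length was 0.35. It was 0.35 with log2 gene span, -0.38 with log2 level per kilobase and -0.04 with transcript GC content. With each library's length trend removed, the members' median was -0.09, beside -0.02 over the coding genes tested. Of the members 0 were called, where 0.58% of the coding genes were called higher and 0.53% lower. The values of Pola1 and Pole were among those that then turned sign (-0.15 and -0.04).

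**Figure D4:**
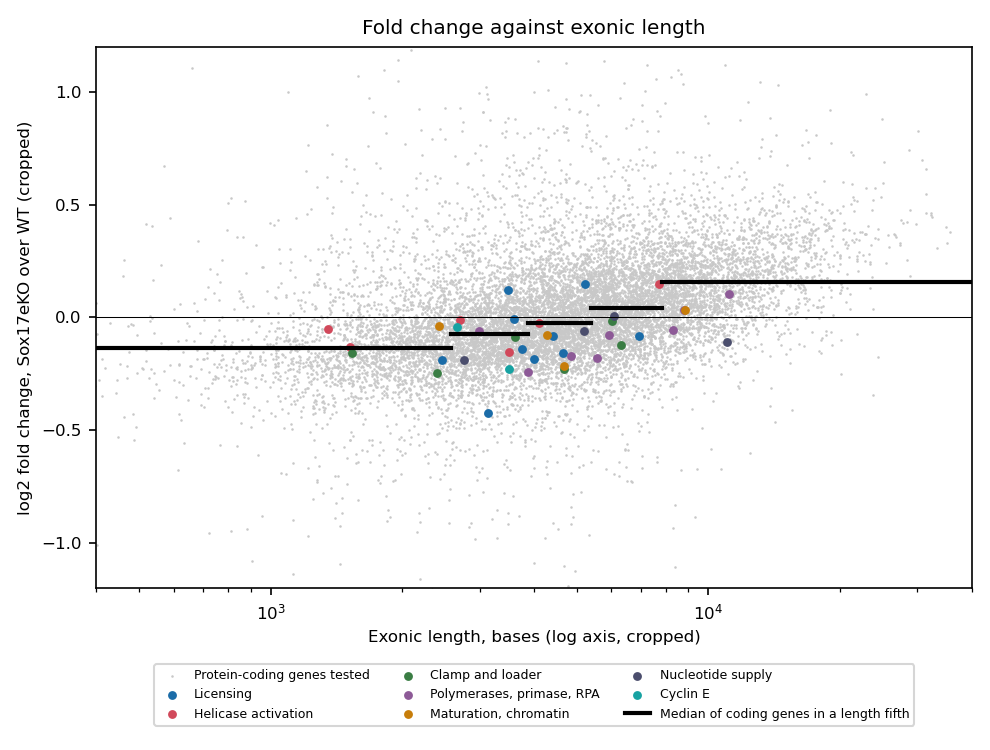
Log2 fold change of Sox17eKO over WT (vertical axis, cropped) against exonic length (horizontal log axis, cropped) for protein-coding genes tested (grey) and the 40 replication genes (coloured by role). Black lines are medians of coding genes in 5 equal length groups, and they climb from -0.14 to 0.16 while most replication genes lie at or under them.

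Markers of other cells in the tissue also differed between the pools. For the counts below, the shares over all genes tested were 4.13% called higher and 1.22% lower, with 51.8% of fitted values below 0. Of 17 erythroid genes 16 were tested, all with fitted values below 0 and 1 called lower (Hbb-y, an embryonic globin), and they summed to 2841 and 3798 CPM in WT and 1927 and 2532 in Sox17eKO. The high sum was in WT replicate 2, which also had the highest sum of replication genes. Of 16 cardiomyocyte genes 3 rose (Ttn, Ryr2 and Myom1) and 0 fell, while 9 of 16 fitted values were below 0 and the list median was -0.03. Their sums of 31868 and 31370.2 CPM in WT and 43668 and 44712 in Sox17eKO differed mostly through Ttn, the giant sarcomere spring, at 8111 and 6485 CPM in WT and 19392 and 18324 in Sox17eKO. Of 12 endothelial genes 1 fell (Tie1), with sums of 1119 and 1157 CPM in WT and 1031 and 1105 in Sox17eKO. Fitted values were below 0 for 11 of the 12 endothelial genes and above 0 for 1, with a list median of -0.13. Of 8 smooth muscle genes 1 rose (Myocd) and 1 fell (Cnn1), with sums of 3315 and 3471 CPM in WT and 3013 and 3039.7 in Sox17eKO. Of 11 cushion mesenchyme genes 2 rose (Vcan and Pdgfra) and 1 fell (Dcn), with sums of 5961 and 5105 CPM in WT and 6488 and 6235 in Sox17eKO. Fitted values were below 0 for 5 of the 8 smooth muscle genes and 7 of the 11 cushion mesenchyme genes, with medians of -0.14 and -0.07. Of the genes that rose in these lists, all but Myocd lie in the longest of the 5 groups of coding genes by exonic length. In that group 14.1% of coding genes were called higher, and the part of length in these calls was not tested. Macrophage markers (0 of 10 called) summed to 109.8 to 119.9 CPM over the libraries. No tested marker of these lists was at 0 in any library, and the part of these cells in the levels of the replication genes was not tested.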

How the data were processed

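For each of the 4 libraries the deposited values were whole read counts by Ensembl ID. TopHat2, HTSeq and the mm10 build are listed per the submitters' processing notes, and no source used here gives their versions, the annotation release or how strand was counted. RNA was extracted with TRIzol and libraries kept strand, per the labels' protocols. Symbols, lengths and principal transcripts came from GENCODE M21 (GRCm38), which gave a symbol for 45143 of 45706 gene IDs. HTSeq's summary lines entered neither library sizes nor tests.

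Genes were tested with edgeR (quasi-likelihood F test; version 4.0.16, R 4.3.3, robust fit, TMM factors, genotype as the only term) on genes passing filterByExpr, with calls at a Benjamini-Hochberg adjusted p under 0.05. Standard errors were taken as the absolute log2 fold change divided by the root of F, and 95% intervals use the moderated degrees of freedom. Scripts were tested on simulated counts. Alternatives used DESeq2 1.42.0, limma-voom (limma 3.58.1), other scalings and filters, a replicate block, left-out libraries and smooth trends on length or transcript GC content (mgcv 1.9.3).

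The members and gene lists were chosen with earlier results of these data known. Values per library were given for Mcm2 to Mcm7 and in each role group for the genes with the highest level per kilobase, the highest and the lowest log2 fold change. Of the lists of other replication, G1/S and mitosis genes, called genes or, with none, the 2 with the smallest p were given. Other genes given with values were chosen after these were seen. Each p-value measures only the variation among these pools, 2 per genotype.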

Additional observations from a re-analysis of the deposited data

How the results depend on the processing

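The median log2 fold change of the 40 genes was below 0 under every alternative run, from -0.05 with scaling by library size only to -0.11 without Sox17eKO replicate 2, and 29 to 35 of 40 fitted values were below 0. No alternative called a member higher. Among fits to all libraries, the count called lower was 1 with no low-count filter (Cdt1) and 4 with the GC trend removed. Of all genes tested under these settings, 1.38% and 3.62% were called lower. The count was 1 with length and GC trends removed (Rrm1), where 1.09% of the coding genes tested were called lower. The cause was not tested. The count over all genes ran from 90 higher and 13 lower without WT replicate 2 to 1107 and 577 with the replicate block.

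With the replicate block, 2 members were called lower (Cdt1 and Pcna, edgeR adjusted p = 0.0181 and 0.0229), where 3.48% of all genes tested were. The numbers were not shown to pair the pools: deviations of same-numbered libraries correlated at -0.03 over all genes tested and 0.38 over the 40.

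None of the values that changed sign was called. With limma-voom Tyms was at -0.00714. By library size only Mcm4 was at 0.0211, Gins2 at 0.00292, Gins3 at 0.0186 and Rfc1 at 0.0125. With the length trend removed Mcm4 was at 0.0325, Gins2 at 0.00551, Gins3 at 0.062, Gins4 at 0.0794, Pola1 at -0.154, Pole at -0.0424, Rpa2 at 0.00908, Fen1 at 0.0554, Chaf1a at -0.0606, Tyms at -0.0237 and Ccne1 at 0.0366. With the GC trend removed Pola1 was at -0.037 and Tyms at -0.0564. With both trends removed Mcm4 was at 0.00379, Gins2 at 0.0114, Gins3 at 0.0361, Gins4 at 0.0633, Pola1 at -0.161, Pole at -0.0393, Fen1 at 0.0566, Chaf1a at -0.0493, Tyms at -0.048 and Ccne1 at 0.0338. Leaving out 1 library gave ranges from -0.0605 to 0.276 for Orc1, -0.0693 to 0.0642 for Gins3, -0.00254 to 0.0612 for Pola1, -0.176 to 0.0129 for Mcm2, -0.0787 to 0.0174 for Gins2, -0.0932 to 0.103 for Tyms, -0.0494 to 0.0282 for Mcm4, -0.253 to 0.0706 for Lig1, -0.129 to 0.0283 for Ccne1, -0.137 to 0.0387 for Gins4 and -0.0838 to 0.129 for Chaf1a. DESeq2 gave no adjusted p for some genes, and these were left out of lost calls.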
